A study of Homo sapiens with 12 samples.

Results

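The 10 genes described here are TXNIP, the alpha-arrestin genes ARRDC1 to ARRDC4, the sugar-sensing transcription factor genes MLXIP and MLXIPL, and the thioredoxin system genes TXN, TXN2 and TXNRD1. They were taken by symbol from the 60656 gene identifiers of a raw count table, and all 10 were present in it and passed the filter on low counts, which kept 19636 genes. The set was chosen by gene family, with no threshold, and selected on earlier results from the counts of these same libraries, the oxygen contrast included. Its oxygen differences are therefore a description, and its p-values give a position in a fit over all genes.

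RNA-seq was made from 3 established human metastatic melanoma lines, named A375, SKMEL-5 and A2058. Each line was grown in normoxia, which is atmospheric oxygen and served as the reference, and in hypoxia at 1% oxygen. There were 2 libraries per line and condition, named by the submitters as biological duplicates, which makes 12 libraries in 6 groups. No genetic change or drug is named in the labels and the time in hypoxia is not given there.

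Thioredoxins are small proteins that reduce disulphide bonds in other proteins, and thioredoxin reductases recharge them with electrons from NADPH. TXNIP, the thioredoxin-interacting protein, belongs to the alpha-arrestins, binds reduced thioredoxin, and promotes removal of the glucose transporters GLUT1 and GLUT4 from the cell surface. The transcription factors MondoA (gene MLXIP) and ChREBP (gene MLXIPL) pair with MLX, sense sugar phosphates and bind carbohydrate response elements in the promoters of TXNIP and ARRDC4, the textbook targets of the pathway.

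Promoters are shown for TXNIP and ARRDC4 because they are the 2 textbook targets of the pathway. The sequences are RefSeq's, on GRCh38.p14, and run 5′ to 3′ over the 250 bases before the transcription start. Capitals mark in TXNIP the stretch from one CACGNG box to another, with any 5 bases between them, and in ARRDC4 an E-box (letters CACGTG). TXNIP is at chr1:145996580-145996829 on the minus strand and ARRDC4 at chr15:97960453-97960702 on the plus strand.
TXNIP: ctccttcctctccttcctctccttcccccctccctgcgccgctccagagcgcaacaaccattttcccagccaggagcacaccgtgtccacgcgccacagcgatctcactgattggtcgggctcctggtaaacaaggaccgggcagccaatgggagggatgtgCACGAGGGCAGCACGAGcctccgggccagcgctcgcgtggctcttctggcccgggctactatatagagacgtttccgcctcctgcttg
ARRDC4: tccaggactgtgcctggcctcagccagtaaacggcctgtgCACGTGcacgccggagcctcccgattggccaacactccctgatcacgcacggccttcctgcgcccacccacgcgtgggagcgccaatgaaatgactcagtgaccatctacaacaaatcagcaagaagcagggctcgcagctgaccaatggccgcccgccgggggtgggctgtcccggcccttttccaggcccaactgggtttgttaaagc
Both motifs were searched on both strands and were chosen after the sequences had been seen. The paired boxes lay 88 to 72 bases before the TXNIP start and occurred in 16 of 35116 promoters (0.0456%), among them no other member. The CACGTG box lay 210 to 205 bases before the ARRDC4 start and occurred in 6.34% of promoters, again in no other member. The shorter hypoxia-response core was searched in both its forms. The form ACGTG lies inside that E-box, occurred in 18.5% of all promoters and was found in ARRDC4 alone among the members. The form GCGTG occurred in 32.2% of promoters and in 5 of 9 members (TXNIP, ARRDC2, ARRDC4, MLXIP and TXN). The forkhead core GTAAACA was found 124 to 118 bases before the TXNIP start and in 2.98% of promoters. Of the 10 members, 9 had a promoter entry (the other was TXN2). These matches describe letters in a window and do not show binding.

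Library totals ran from 33831569 to 54202819 counts. Of 12 hypoxia-response genes used to check the labels, 10 passed the test as higher in hypoxia in the mean of the lines, among them NDRG1 (log2 difference 4.13 ± 0.56, SE) and P4HA1 (2.67 ± 0.37), with median differences of 2.60 over the list and 0.02 over all tested genes. SOX10, a neural crest factor of melanoma, was present in all libraries (765 to 1683 CPM, counts scaled to a common library size with TMM factors), while the pigment genes MLANA and TYR were at 0 counts in every A375 and SKMEL-5 library. Of the markers of other cell types, DSG3 was at 0 and PTPRC, CD3E, HBB, KRT5, KRT1 and TP63 were under the filter. The summed fibroblast markers ran from 9.58 to 34.1 CPM in normoxia and from 13.8 to 138 CPM in hypoxia, and their part in the results was not tested. Earlier results of these data had shown that 3 hypoxic libraries differ widely from their partners, namely library 2 of hypoxic A2058 and library 1 of hypoxic A375 and of hypoxic SKMEL-5. The median chi-square statistic over genes between the libraries of a group was 37.7 to 64.8 in hypoxia and 12.6 to 24.4 in normoxia. It belongs to the pair and does not show which of the 2 libraries is unusual. The differences in the mean of the lines are also given without these 3 libraries. That fit leaves 1 hypoxic library per line, so its spread comes from the normoxic pairs alone. Only the size of each difference is therefore given for it. Without the 3 libraries the median over the 12 hypoxia-response genes was 1.97. A375 and SKMEL-5 libraries of the same condition and number were close to each other, with correlations of log2 CPM across genes of 0.976 to 0.990 over 4 pairs. Between A2058 and either line the range was 0.810 to 0.880, over all 32 pairs, those of unlike condition or number included. A375 and SKMEL-5 were counted as separate lines, and values that use only one of them are given with the results.

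In 1% oxygen TXNIP, ARRDC4 and ARRDC3 stood higher than in normoxia in each of the 3 lines, though none of them passed the test over all genes. The 7 other members showed no separation that was shared by the lines, and no member had both hypoxic libraries below both normoxic ones in every line. TXNIP (ENSG00000265972.6) lies on chromosome 1 from 145992435 to 145996600, on GRCh38 with GENCODE 29 positions as for all members. It had the widest span of the 10 genes. In A2058 it stood at 62.0 and 8.34 CPM in the normoxic libraries 1 and 2 and at 89.5 and 332 in the hypoxic libraries 1 and 2. A375 had 29.04 and 5.07 CPM in normoxia and 891 and 53.2 in hypoxia. SKMEL-5 had 22.1 and 6.21 CPM in normoxia and 1571 and 82.0 in hypoxia. Both hypoxic libraries were above both normoxic libraries in each line. The highest hypoxic value of each line was in 1 of the 3 libraries named above. Those had been set apart on these same counts, so this is no independent observation. From A375 normoxia 2 to SKMEL-5 hypoxia 1 the level differed 310-fold. In bulk RNA, a change in the share of cells that express a gene and a change in RNA per cell cannot be told apart.

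**Figure D1:**
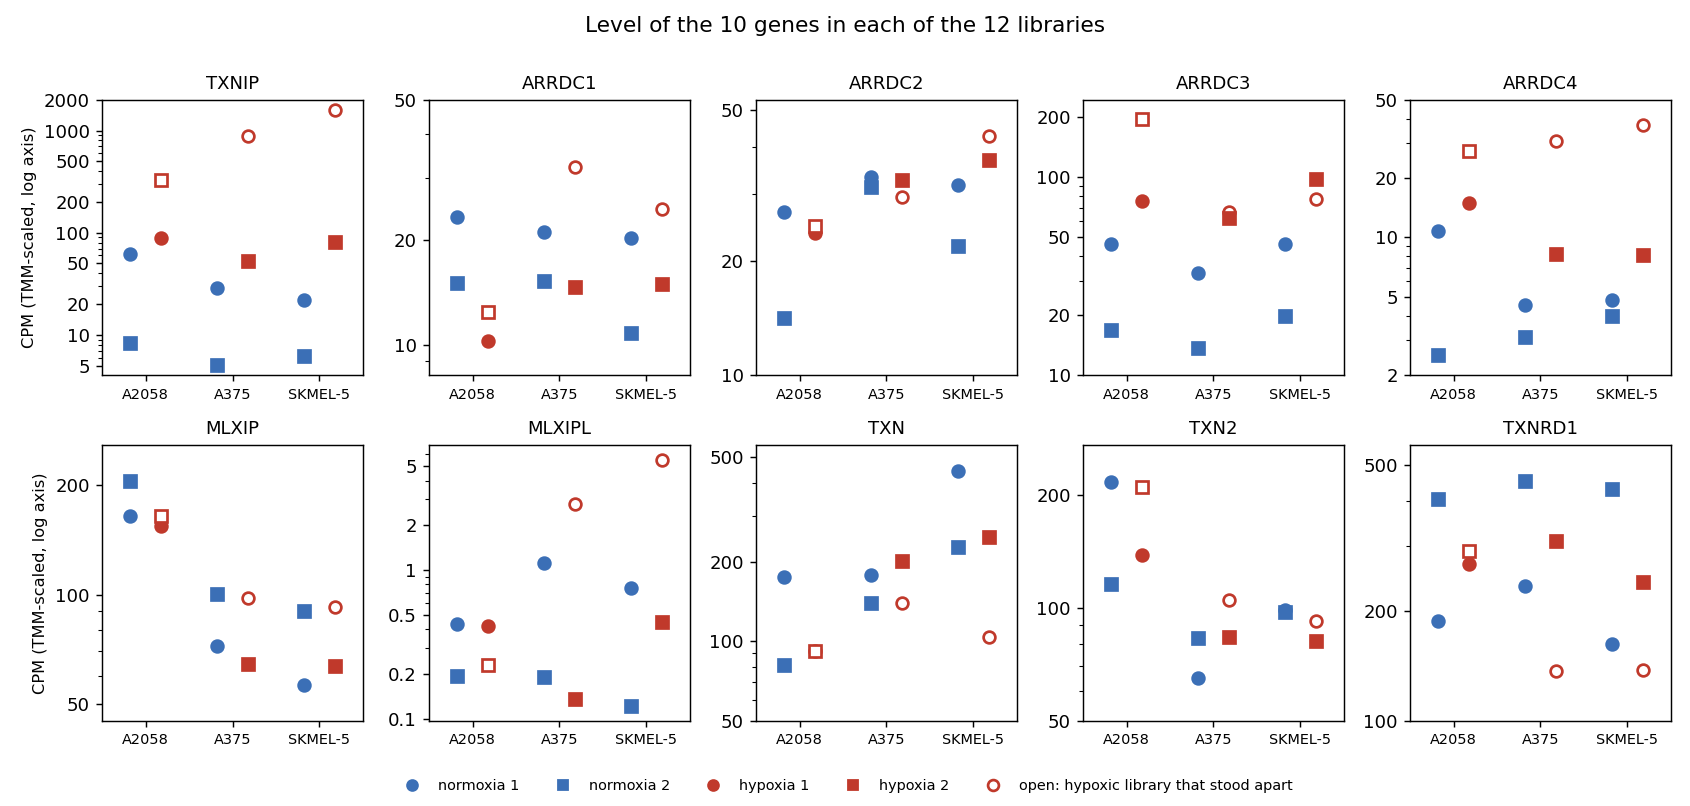
Level of each of the 10 genes in the 12 libraries, in TMM-scaled CPM on log axes that differ between panels, with blue for normoxia and red for hypoxia, a circle for library 1 and a square for library 2, and open symbols for the 3 hypoxic libraries that differ widely from their partners. TXNIP, ARRDC3 and ARRDC4 have both hypoxic libraries above both normoxic libraries in each line, and the open TXNIP symbols reach 332, 891 and 1571 CPM.

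In the mean of the 3 lines the TXNIP difference was 4.41 ± 0.98 on the log2 scale (SE, 95% interval 2.26 to 6.57), or 21.3-fold, with an adjusted p = 0.0600 in edgeR's quasi-likelihood test. It did not pass the threshold of 0.05, while the size of its difference was at the percentile 99.9 of all tested genes. The log2 difference was 5.87 in SKMEL-5, 4.79 in A375 and 2.58 in A2058, and the test that the lines differ had an adjusted p = 1.00. Leaving out 1 library at a time gave 2.54 (without hypoxia 1) to 7.13 (without normoxia 1) in SKMEL-5, 1.60 (without hypoxia 1) to 6.53 (without normoxia 1) in A375, and 1.37 (without hypoxia 2) to 4.64 (without normoxia 1) in A2058. Without the 3 libraries named above, which leaves 1 hypoxic library per line, the mean was 1.82. With A375 or SKMEL-5 left out of the mean it was 4.22 (adjusted p = 0.190) and 3.69 (adjusted p = 0.223).

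ARRDC3 (ENSG00000113369.9, chromosome 5 from 91368724 to 91383359) encodes an alpha-arrestin known for linking the beta2-adrenergic receptor and integrin beta-4 to ubiquitin ligases. Its normoxic values were 46.0 and 16.9 CPM in A2058, 32.7 and 13.7 in A375, and 46.1 and 19.98 in SKMEL-5. Its hypoxic values were 75.8 and 196 CPM in A2058, 66.9 and 62.4 in A375, and 77.7 and 97.2 in SKMEL-5. The lowest hypoxic library, at 62.4 CPM, lay above the highest normoxic library, at 46.1. This separation across all 6 against all 6 libraries was found in 1.45% of tested genes, and ARRDC3 was the only member with it. The reverse separation was found in 0.677% of genes and in 0 members. In the mean of the lines ARRDC3 was 3.17-fold higher (log2 1.66 ± 0.37, adjusted p = 0.0583). Its log2 difference was 1.40 without the 3 libraries. With SKMEL-5 or A375 left out of the mean it was 1.79 and 1.76.

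ARRDC4 (ENSG00000140450.9, chromosome 15 from 97960698 to 97973838) encodes an alpha-arrestin that, like TXNIP, acts on glucose transport. It had 10.8 and 2.53 CPM in normoxic A2058, 4.54 and 3.12 in A375, and 4.81 and 3.97 in SKMEL-5. In hypoxia it had 14.9 and 27.6 CPM in A2058, 30.9 and 8.27 in A375, and 37.1 and 8.13 in SKMEL-5. Both hypoxic libraries of a line were above both normoxic ones in each line. In the mean it was 4.37-fold higher (log2 2.13 ± 0.50, adjusted p = 0.0695). Without the 3 libraries the difference was 1.04. With SKMEL-5 or A375 left out of the mean it was 2.01 and 2.02.

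No member passed the threshold in the mean of the lines: edgeR called 0 of 10, against 1.12% of all tested genes (0.978% higher and 0.143% lower). An unadjusted p under 0.05 was found for 3 of 10 members (TXNIP, ARRDC3 and ARRDC4), against 3723 of 19636 tested genes. DESeq2 called those 3 members among 1543 genes, and limma-voom called 0 members among 178 genes. Hypoxic libraries lay above normoxic ones in each of the 3 lines for the same 3 genes, against 4.86% of tested genes. Below normoxia in each line lay 0 members, against 2.79%.

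Leaving out 1 library could change the call. TXNIP and ARRDC4 passed without A375 hypoxia 2 (4.72, adjusted p = 0.0181 and 2.35, adjusted p = 0.0236) and without SKMEL-5 hypoxia 2 (adjusted p = 0.0343 and 0.0413). ARRDC3 passed without A2058 hypoxia 1 (adjusted p = 0.0367) and without A375 hypoxia 2 (adjusted p = 0.0350). Without SKMEL-5 hypoxia 1 the TXNIP mean was 3.31.

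**Figure D2:**
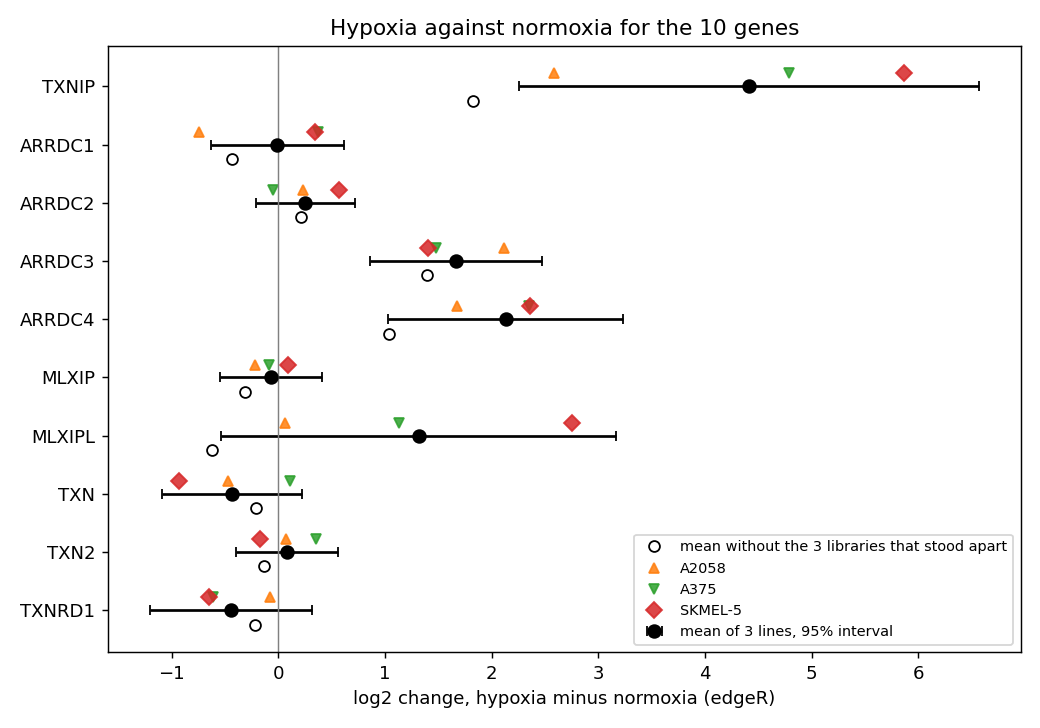
Log2 difference between hypoxia and normoxia for each of the 10 genes, in the mean of the 3 lines with its 95% interval, in each line, and in the mean without the 3 libraries that differ widely from their partners (open circles). TXNIP (4.41), ARRDC4 (2.13) and ARRDC3 (1.66) lie to the right with intervals above 0, and the intervals of the other 7 members include 0.

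The other alpha-arrestins showed no such separation. ARRDC1 (ENSG00000197070.14, chromosome 9 from 137605654 to 137615360), which is known for driving budding of small vesicles from the plasma membrane, had 23.1 and 15 CPM in normoxic A2058 against 10.3 and 12.4 in hypoxia. A375 had 21.0 and 15.3 CPM in normoxia and 32.2 and 14.7 in hypoxia, and SKMEL-5 had 20.2 and 10.8 against 24.4 and 14.97. The hypoxic libraries were below the normoxic ones in A2058 and overlapped them in A375 and SKMEL-5. The mean log2 difference was -0.01 ± 0.28 (adjusted p = 1.00), and -0.44 without the 3 libraries. The antisense gene ARRDC1-AS1 overlaps ARRDC1 and was at 12.1 to 28.5 CPM, and the strand setting of the counting is not known, so reads of the pair cannot be told apart.

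ARRDC2 (ENSG00000105643.10, chromosome 19 from 18001132 to 18014102) stood at 27.0 and 14.2 CPM in normoxic A2058 and 23.7 and 24.7 in hypoxia, at 33.3 and 31.3 against 29.6 and 32.8 in A375, and at 31.8 and 21.9 against 42.7 and 37.1 in SKMEL-5. Only in SKMEL-5 did the hypoxic libraries lie above the normoxic ones without overlap. Its mean log2 difference was 0.25 ± 0.21 (adjusted p = 0.534), and 0.21 without the 3 libraries.

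MLXIP (ENSG00000175727.14, chromosome 12 from 122078722 to 122147347), which encodes MondoA, was at 165 and 205 CPM in normoxic A2058 and 154 and 164 in hypoxia. A375 had 72.5 and 100.1 CPM in normoxia and 98.1 and 64.6 in hypoxia, and SKMEL-5 had 56.4 and 90.3 against 92.3 and 63.6. The hypoxic libraries were just below the normoxic ones in A2058, and the conditions overlapped in A375 and SKMEL-5. The mean log2 difference was -0.07 ± 0.22 (adjusted p = 0.898), or -0.32 without the 3 libraries. MLXIPL (ENSG00000009950.16, chromosome 7 from 73593194 to 73624543), which encodes ChREBP, ran from 6 to 232 counts per library. Its highest levels were 2.76 CPM in A375 hypoxia 1 and 5.53 in SKMEL-5 hypoxia 1, while every other library was at 1.11 CPM or below. Its mean of 1.31 ± 0.84 (adjusted p = 0.407) became -0.63 without the 3 libraries.

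TXN (ENSG00000136810.13, chromosome 9 from 110243811 to 110256640), the cytosolic thioredoxin that TXNIP binds, was at 175 and 80.9 CPM in normoxic A2058 and 91.8 and 92.0 in hypoxia. A375 had 179 and 140 CPM in normoxia and 140.0 and 203 in hypoxia, and SKMEL-5 had 445 and 228 against 103 and 249. Normoxic and hypoxic libraries overlapped in every line. The mean log2 difference was -0.44 ± 0.30 (adjusted p = 0.438), or -0.21 without the 3 libraries. TXN2 (ENSG00000100348.10, chromosome 22 from 36467036 to 36482030), the mitochondrial thioredoxin, had 216 and 115 CPM in normoxic A2058 and 138 and 210.0 in hypoxia. In A375 it was at 65.0 and 82.9 CPM against 105 and 83.6, and in SKMEL-5 at 98.5 and 97.1 against 92.0 and 81.3. The hypoxic libraries were thus above normoxia in A375 and below it in SKMEL-5. The mean difference was 0.08 ± 0.22 (adjusted p = 0.882), or -0.14 without the 3 libraries.

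TXNRD1 (ENSG00000198431.16, chromosome 12 from 104215779 to 104350305) encodes the cytosolic thioredoxin reductase. Normoxic libraries 1 and 2 had 187 and 403 CPM in A2058, 234 and 453 in A375, and 162 and 430 in SKMEL-5. Hypoxic libraries had 268 and 292 CPM in A2058, 137 and 311 in A375, and 138 and 240.0 in SKMEL-5. Normoxic library 2 was the highest of the 4 in each line, and in A375 and SKMEL-5 the lowest was hypoxic library 1. The mean log2 difference was -0.45 ± 0.35 (adjusted p = 0.495), or -0.22 without the 3 libraries. RPL18AP3 (2.59 to 19.7 CPM) and EID3 (0.0908 to 3.004 CPM) overlap TXNRD1 on the same strand.

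**Figure D3:**
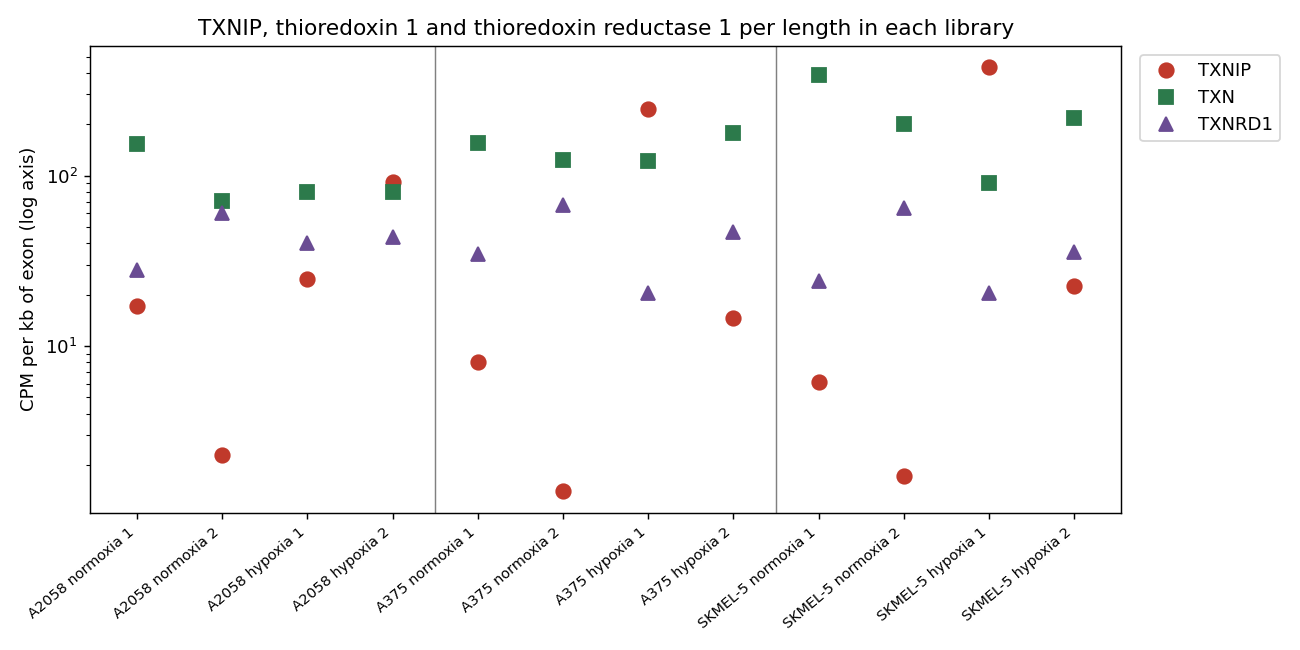
CPM per kilobase of exon, on a log axis, of TXNIP, TXN and TXNRD1 in each of the 12 libraries. TXN is the highest of the 3 in the normoxic libraries, and TXNIP is above TXN only in library 2 of hypoxic A2058 and library 1 of the other hypoxic lines.

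To compare levels between genes, CPM was divided by exon length. The median over the 12 libraries was 138 CPM per kilobase for TXN (range 70.9 to 389), 47.7 for TXN2 (31.7 to 106), 37.9 for TXNRD1 (20.4 to 67.6) and 15.9 for TXNIP (1.40 to 433). ARRDC3 had 10.99 (2.77 to 39.8), MLXIP 6.85 (4.06 to 14.8), ARRDC2 6.57 (3.06 to 9.21), ARRDC1 3.96 (2.69 to 8.43), ARRDC4 2.01 (0.622 to 9.10) and MLXIPL 0.0889 (0.0252 to 1.15). Each neighbouring pair in that order overlapped in range. The ratio of TXNIP to TXN per kilobase was 0.112 and 0.0325 in normoxic A2058, 0.0512 and 0.0114 in A375, and 0.0157 and 0.00859 in SKMEL-5. In hypoxia it was 0.307 and 1.14 in A2058, 2.004 and 0.0826 in A375, and 4.78 and 0.104 in SKMEL-5. TXNIP therefore exceeded TXN in 3 libraries, the same 3 that had been set apart on these same counts.

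Libraries of the same group differed for several members. Set against the other hypoxic library of its line, the library named above had TXNIP 3.70-fold higher in A2058, 16.7-fold in A375 and 19.2-fold in SKMEL-5. A difference of at least 2-fold upward in each line was seen in 3.71% of tested genes and, among the members, in TXNIP alone. The same downward was seen in 4.95% of genes and in 0 members. In ARRDC4 the same comparison gave log2 differences of 0.89, 1.90 and 2.18, and in ARRDC3 1.37, 0.10 and -0.32. TXNRD1 gave 0.12, -1.18 and -0.80, and TXN gave 0.00, -0.53 and -1.27.

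Normoxic library 1 was also above normoxic library 2 for TXNIP, by 7.40-fold in A2058, 5.69-fold in A375 and 3.54-fold in SKMEL-5. ARRDC3 (log2 1.44, 1.26 and 1.20) and MLXIPL (1.02, 2.30 and 2.27, at low counts) were the other members at least 2-fold higher in library 1 in each line, against 2.09% of tested genes. TXNRD1 was lower in library 1 in each line (-1.11, -0.96 and -1.41), and 0 members were at least 2-fold lower in each, against 0.514% of genes. A difference of at least 2-fold upward in both comparisons in each line was seen in 0.428% of tested genes and only in TXNIP among the members, and downward in 0.168% and in 0 members. SLC2A1, which encodes GLUT1 and was named after its values were seen, was lower in normoxic library 1 than 2 in each line: 119.5 and 187 CPM in A2058, 170 and 394 in A375, 167 and 291 in SKMEL-5. Its hypoxic libraries 1 and 2 had 442 and 907 CPM in A2058, 372 and 586 in A375, and 386 and 621 in SKMEL-5, above normoxia in A2058 and SKMEL-5 and overlapping it in A375. What the libraries of a group differed in was not tested.

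**Figure D4:**
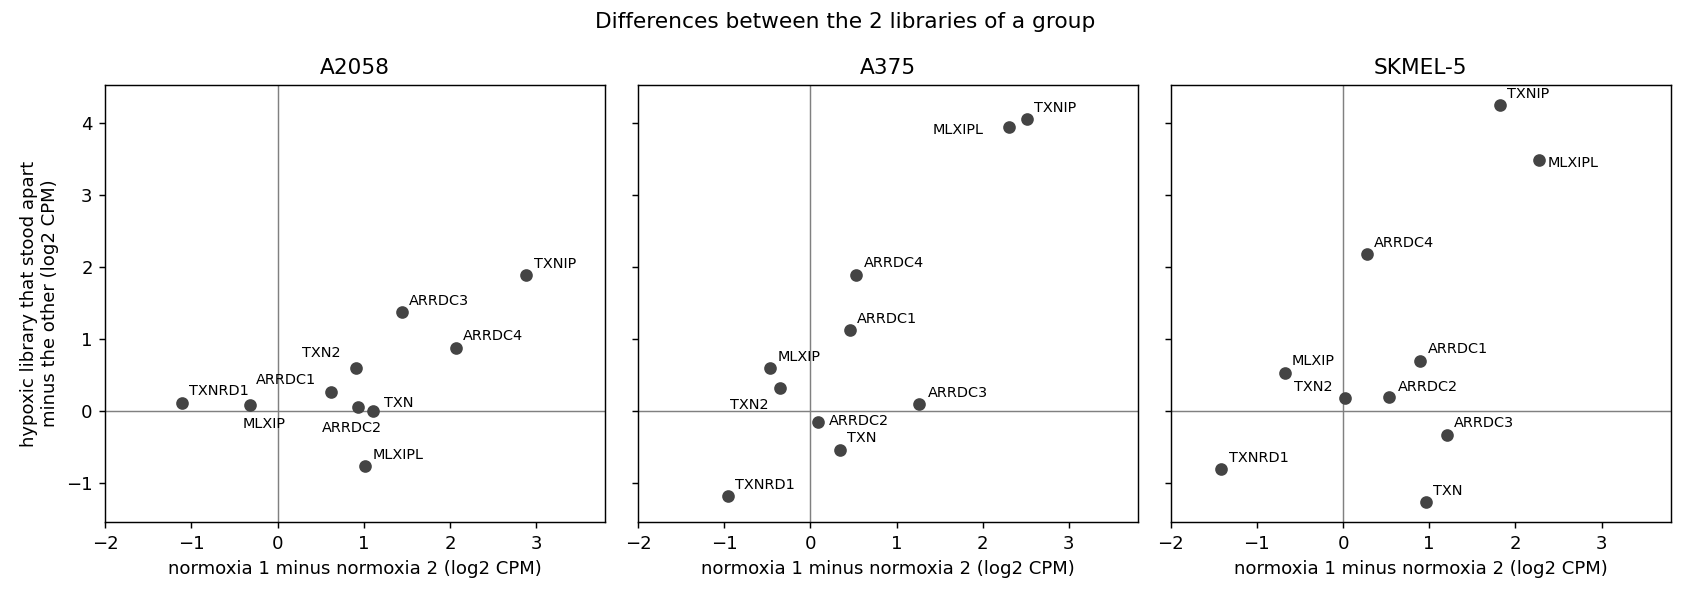
Log2 difference of each of the 10 genes between the 2 normoxic libraries (horizontal) and between the hypoxic library that differs widely and its partner (vertical), for each line. TXNIP lies far to the upper right in each line, at 2.89 and 1.89 in A2058, 2.51 and 4.07 in A375, and 1.82 and 4.26 in SKMEL-5.

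After the mean of each line was subtracted, the genes most like TXNIP over the 12 libraries were LARP6 (Pearson r = 0.991), PTPRH (0.987), ACSS3 (0.984), SLC29A4 (0.983) and CEP57 (0.983), among 9765 genes of at least 10 CPM. Among the members ARRDC4 came nearest (0.970, rank 19), followed by ARRDC3 (0.815), while TXNRD1 ran the other way (-0.775). Over the 9 libraries without the 3 named above, the values were 0.901 for ARRDC4, 0.988 for ARRDC3 and -0.697 for TXNRD1, and MLXIP went from 0.036 to -0.865. The genes most like ARRDC4 were RCN3 (0.976), MMUT (0.974), TXNIP (0.970), AGTPBP1 (0.967) and MDK (0.965). These coefficients describe 12 libraries that share lines, conditions and replicate structure, and no p is attached.

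Across lines, averaged over both oxygen conditions, A2058 differed from the mean of A375 and SKMEL-5 in 2 of 10 members, both higher, against 33.7% of all tested genes (17.2% higher and 16.5% lower). MLXIP was 2.16-fold higher in A2058 (log2 1.11 ± 0.22, adjusted p = 0.00274) and TXN2 1.94-fold higher (0.95 ± 0.22, adjusted p = 0.00695). All 4 A2058 libraries were above all 8 others for both genes, and how many tested genes separate in this way was not counted. Without A2058 normoxia 1 the TXN2 difference was 0.70 (adjusted p = 0.0553). TXN was -0.89 ± 0.33 (adjusted p = 0.0581). DESeq2 called it as well as MLXIP and TXN2 (-0.89, adjusted p = 0.0233 for TXN), among 7538 genes called. Limma-voom called 2 members among 6573 genes. In edgeR TXN passed when any of 4 libraries was left out: A2058 normoxia 1 (-1.21), A375 hypoxia 1 (-0.94), SKMEL-5 hypoxia 1 (-1.01) or SKMEL-5 normoxia 2 (-0.99). The TXNIP difference was -0.20 ± 0.91 (adjusted p = 0.892).

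No single line gave a member past the threshold. In A2058 edgeR called 0 members, against 0.0102% of all tested genes. There 1 member had an unadjusted p under 0.05, against 1798 of 19636 tested genes. SKMEL-5 and A375 had 0 members and 0% of genes called, with 3 members each at an unadjusted p under 0.05. Over all tested genes 1283 were under that value for SKMEL-5 and 1100 for A375. DESeq2 called 0 members in each line, among 357 genes called for A2058, 107 for A375 and 120 for SKMEL-5. Limma-voom also called 0 members in each line, among 10 genes for A2058 and 0 for each other line. In the test for a difference between lines, edgeR called 0 members and 0 genes, 0 members and 315 genes had an unadjusted p under 0.05, and DESeq2 called 8 genes, none of them a member.

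Genes that act with the members were described by lists. In the list of alpha-arrestin cargo and partners, 2 of 9 rose and 0 fell in the mean of the lines. Over all tested genes 0.978% rose and 0.143% fell in the same test. The list median was log2 0.38, against 0.02 over all tested genes. ITGB4, integrin beta-4, rose 25.4-fold (log2 4.66 ± 0.59, adjusted p = 0.00882), and DDIT4, a stress-induced inhibitor of mTORC1 that can form a complex with TXNIP, rose 3.11-fold (1.64 ± 0.25, adjusted p = 0.0161). Without the 3 libraries the log2 differences were 3.44 for ITGB4 and 1.45 for DDIT4. In the list of MondoA and ChREBP partners and glucose-sensing genes, 2 of 12 tested rose and 0 fell (median 0.55). These were the hexokinases HK2 (log2 1.54, adjusted p = 0.0168) and HK1 (1.12, adjusted p = 0.0428), which make the glucose-6-phosphate that MondoA senses. Without the 3 libraries their log2 differences were 1.26 for HK2 and 1.06 for HK1.

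The redox and arrestin neighbours held no called gene. In the mean of the lines 0 of 7 tested thioredoxin relatives, 0 of 16 thioredoxin clients, 0 of 10 genes of the glutathione and glutaredoxin branch, 0 of 5 other arrestin-fold genes and 0 of 9 NEDD4-family ubiquitin ligases passed in edgeR's test. Over all tested genes 1.12% passed, and at that share lists this short can hold 0 called genes. The list medians were 0.22, -0.12, -0.21, 0.10 and 0.07. Outside the client list, the smallest p of each list belonged to NXN (log2 0.99 ± 0.30, adjusted p = 0.132), GPX4 (0.84 ± 0.28, 0.155), VPS26C (0.58 ± 0.19, 0.159) and WWP2 (0.81 ± 0.25, 0.140). At an unadjusted p under 0.05 the lists held 2, 3, 3, 1 and 1 genes, against 3723 of 19636 tested genes. In these lists DESeq2 called NXN and WWP2, among its 1543 called genes, and limma-voom called 0, among its 178.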

How the data were processed

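RNA-seq libraries of 3 melanoma lines in normoxia and 1% oxygen used total RNA and a NuGen kit, per the labels' protocols. The table of counts that the authors deposited holds whole, unnormalized read counts for each gene. The tools named, per the submitters' processing notes, were STAR 2.5.0a, Trim Galore 0.6.1 and bcl2fastq 2.20, with the build GRCh38. Which tool counted the reads, with which strand setting and annotation, was not given in the sources used here. Overlapping genes may therefore share reads.

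Symbols matched 60445 of 60656 identifiers, and GENCODE 29 gave positions and exon lengths. The tests used edgeR 4.0.16 under R 4.3.3 (quasi-likelihood, TMM, filterByExpr with a minimum count of 10 and a minimum total of 15). All 12 libraries entered 1 model with a mean for each group. Benjamini-Hochberg adjustment ran over 19636 genes with a threshold of 0.05. Adjusted p-values come from edgeR where the text names no other tool. With 2 libraries a group, p-values measure the spread between these libraries, which the submitters call biological duplicates. Where a fit left out a library, its group no longer added to that spread. A count of 0 allows up to 0.0553 to 0.0887 CPM of the raw library totals, before TMM scaling (3 counts, counting error only). Log2 CPM used a prior count of 2. The procedure was tested on simulated data.

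The members, the 8 pathway lists, the 5 marker lists and the tests were chosen with earlier results of these data known. The text names all members, up to 2 called genes per direction of each list or else the gene with the smallest p, and the 5 genes most like TXNIP and ARRDC4. The gene that this rule names in the list of thioredoxin clients is not reported here. Alternatives were DESeq2 1.42.0, edgeR with DESeq2's size factors, limma-voom 3.58.1, no filter, genes at 1 CPM or more in 2 libraries, a block for the replicate number, leaving out libraries, and means of 2 lines.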

Additional observations from a re-analysis of the deposited data

Results flagged for a closer look

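TXN2, the mitochondrial thioredoxin gene, was picked out because its libraries separated in opposite directions in 2 lines. The hypoxia minus normoxia difference was 0.35 on the log2 scale in A375, where both hypoxic libraries lay above both normoxic ones, and -0.17 in SKMEL-5, where both lay below. The gap in A375 was narrow, with the lower hypoxic library at 83.6 CPM and the higher normoxic one at 82.9. With 2 libraries a group such separations can arise easily, and how many tested genes show opposite ones was not counted. In edgeR's quasi-likelihood F test of a difference between the 3 lines, TXN2 had an adjusted p = 1.00 over all genes.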

How the results depend on the processing

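With 2 libraries a group, a common biological coefficient of variation of 0.453 limits which differences pass. Over all genes 192 were higher and 28 lower in the mean of the lines. The counts were 1110 and 433 with DESeq2, 1365 and 490 with no filter, 34 and 14 for A2058 and A375 alone, 24 and 10 for A2058 and SKMEL-5 alone, and 27 and 3 without the 3 hypoxic libraries that differ widely from their partners. Whether the replicate numbers pair the samples was not settled. Same-numbered differences correlated at -0.30 for A2058, 0.23 for A375 and 0.26 for SKMEL-5, so the sign was not shared by the lines. With 2 libraries a group, the 8 of 12 libraries nearest their own number rest on the same differences and are no second check. With a replicate block the counts were 78 and 13, 1 member was called (TXNIP, 4.01, adjusted p = 0.0458), TXNRD1 in A2058 was 0.027 and TXNIP in A2058 against the others 0.48. Members called in the mean were 3 with DESeq2 and 3 with no filter. With no filter 2 members were called in each line, 1 in the test between lines and 4 in A2058 against the others. How many of all genes passed in those other tests with no filter was not counted, so no share stands beside these member counts. Why the calls differed was not tested.

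Signs that turned belonged to values that had not passed. With limma-voom TXNRD1 in A2058 was 0.027 and TXNIP in A2058 against the others 0.10, and TXN2 was -0.053 for A2058 and SKMEL-5 alone. Without the 3 libraries the means of MLXIPL and TXN2 were -0.63 and -0.14, TXN2 in A2058 -0.28, ARRDC1 in A375 and SKMEL-5 -0.35 and -0.055, MLXIPL in A375 -2.30 and MLXIP in SKMEL-5 -0.21, and A2058 against the others gave TXNIP 0.83, MLXIPL 0.018 and TXNRD1 -0.034.

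Leaving out each library in turn gave 9 to 823 genes higher (without A375 normoxia 2 and without A375 hypoxia 2), 4 to 297 lower, 0 to 3 members called in the mean and 2 to 3 in A2058 against the others. Means ran from 3.31 to 5.13 for TXNIP, 1.40 to 1.97 for ARRDC3, 1.64 to 2.61 for ARRDC4, -0.23 to 0.18 for ARRDC1, -0.18 to 0.055 for MLXIP and -0.047 to 0.26 for TXN2. In A2058 the ranges were -0.15 to 0.76 for ARRDC2, -0.45 to 0.75 for MLXIPL, -0.92 to 0.17 for TXN, -0.31 to 0.58 for TXN2 and -0.54 to 0.59 for TXNRD1. In A375 they were -0.34 to 0.81 for ARRDC1, -0.46 to 0.17 for MLXIP, -2.29 to 2.89 for MLXIPL and -0.20 to 0.31 for TXN. In SKMEL-5 they were -0.045 to 0.92 for ARRDC1, -0.20 to 0.47 for MLXIP and -1.16 to 0.23 for TXNRD1. A2058 against the others gave -0.35 to 0.72 for ARRDC4, -1.24 to 0.63 for TXNIP and -0.17 to 0.40 for TXNRD1. DESeq2's size factors and the 1 CPM filter turned no sign and changed no call of a member.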
